A study of Rattus norvegicus with 6 samples.

Results

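Abcb1b encodes 1 of the drug-exporting P-glycoproteins of rodents, and it was followed here through every probe set of the array table that named it and no other gene. That was 1 probe set, M81855_at, out of 4818 tested probe sets, and 1 gene out of the 2890 genes that the table named singly. The gene was chosen with its signals on these arrays known, so its levels and differences are a description and carry no test.

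The arrays were Affymetrix rat genome arrays of 6 RNA samples from cultured rat fibroblast lines. The groups were FE8 cells treated with 0.3 µM 5-aza-2'-deoxycytidine for 96 h (n = 2), untreated FE8 cells (n = 1), 208F cells given the same dose for as long (n = 2) and untreated 208F cells (n = 1). 208F is an immortal fibroblast line, and FE8 is an HRAS-transformed rat fibroblast line, so each state is represented by 1 line only. The design asks which genes change after demethylation in the immortal and in the transformed cells. The labels do not say whether duplicates were separate cultures, so errors and p-values reflect only how far these samples varied, and that variation may be technical.

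P-glycoproteins are ATP-binding cassette (ABC) transporters of the plasma membrane. They use ATP to pump lipophilic drugs, among them anthracyclines, vinca alkaloids and taxanes, out of the cell, and their overproduction is a classical form of multidrug resistance in cultured tumour cells. Rodents divide the work of human ABCB1 between the neighbouring genes Abcb1a and Abcb1b, while the third gene of the cluster, Abcb4, encodes a phosphatidylcholine translocase of the bile canaliculus. 5-aza-2'-deoxycytidine, also called decitabine, is a cytidine analogue that is built into DNA and traps DNA methyltransferases, so that methylation is lost as cells divide.

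Because the treatment acts on cytosine methylation at CpG dinucleotides, the start windows of both drug-exporting paralogues are shown, the Abcb1b window for the gene described and the Abcb1a window for the neighbouring paralogue, whose drug differences did not pass the test. Each runs from 250 bases before to 50 bases after an annotated start, 5′ to 3′ on the gene's own strand, from RefSeq on build GRCr8, and capitals mark CpG dinucleotides.
Abcb1b, chr4:26279980-26280279, minus strand: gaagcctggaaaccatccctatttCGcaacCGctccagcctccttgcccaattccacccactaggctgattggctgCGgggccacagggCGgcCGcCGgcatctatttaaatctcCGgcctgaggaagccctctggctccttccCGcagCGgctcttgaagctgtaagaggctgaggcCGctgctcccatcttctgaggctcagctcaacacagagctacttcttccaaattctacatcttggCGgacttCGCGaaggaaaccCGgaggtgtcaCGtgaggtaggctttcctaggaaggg
Abcb1a, chr4:26397599-26397898, minus strand: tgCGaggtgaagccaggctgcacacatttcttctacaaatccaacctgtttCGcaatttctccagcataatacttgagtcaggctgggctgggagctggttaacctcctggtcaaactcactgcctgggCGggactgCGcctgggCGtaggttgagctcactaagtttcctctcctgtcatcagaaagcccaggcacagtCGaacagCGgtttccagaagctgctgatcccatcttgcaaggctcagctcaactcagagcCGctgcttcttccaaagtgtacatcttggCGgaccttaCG
The Abcb1b window held 15 CpG dinucleotides and was 58.3% G or C, and the Abcb1a window held 10 and was 53.7% G or C. The observed over expected CpG ratio was 0.593 for Abcb1b and 0.466 for Abcb1a.

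Over the 33469 windows of the same length in the RefSeq table the median was 7 CpG dinucleotides with quartiles of 3 and 19, and 10717 of them held at least 15. Among the 2646 windows of genes named on the array table the median was 21, so the Abcb1b window lay above the middle of all windows and below the middle of the measured genes. Windows of 3 other genes nearby were read and were denser, with 35 CpG dinucleotides for Abcb4, 27 for Crot and 30 for Sri. Windows of the remaining nearby genes are not given here. RefSeq also annotates an outer start of Abcb1b 127 bases upstream of the start used for this window. Methylation itself was not measured on these arrays, and no value here says which of these CpG dinucleotides were methylated.

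The paralogues' windows resembled each other over 1 stretch. A local alignment placed bases -77 to -3 of Abcb1b, counted with the start base as 0, against bases -34 to 43 of Abcb1a, with 65 identical positions in 78 aligned columns (83.3%).

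Short motifs were then searched on both strands: the GC box GGGCGG, the CCAAT box CCAAT, the E-box CACGTG, the TATA box TATAAA, the AP-1 site TGANTCA, the cAMP response element TGACGTCA, and the NF-kB site and p53 binding motif by their usual consensus. The Abcb1b window held 2 CCAAT boxes, beginning at -203 and -182, 1 GC box beginning at -164 and 1 E-box beginning at 22, and none of these overlapped another. A CCAAT box stood in 37.5% of all windows, a GC box in 33.1% and an E-box in 6.42%. The Abcb1a window held 1 GC box, at -124, and 1 AP-1 site, at -176, and none of the other motifs. The AP-1 site stood in 7.33% of all windows. The TATA box, AP-1 site, cAMP response element, NF-kB site and p53 motif had no match in these letters of the Abcb1b window, which says nothing of sites elsewhere. The map of start windows shows the positions.

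The arrays can be summarised briefly. Median signals of the tested probe sets lay between 354 and 422, the lower ones in the untreated samples. The ratio of 5′ to 3′ signal for beta-actin, a sign of RNA quality, was 0.405 and 0.384 in treated FE8 and 0.351 in untreated FE8. In 208F it was 0.529 and 0.456 in treated cells and 0.824 in untreated cells. For Gapdh the ratio was 1.13 and 1.07 in treated FE8 and 0.691 in untreated FE8. It was 1.13 and 1.01 in treated 208F and 0.916 in untreated 208F, so both untreated arrays were lower by Gapdh. The part of this in the drug differences was not tested. The untreated arrays shared 1 chip lot and 1 scan day, whereas all treated arrays were scanned on later days on other lots, so for every drug effect below the drug and the chip lot or scan day cannot be told apart. Of 12 fibroblast markers 9 were measured, and their summed signal ranged over 48705 to 54952 in treated FE8, was 59064 in untreated FE8, ranged over 76185 to 94330 in treated 208F and was 96605 in untreated 208F. Type I collagen Col1a1, a defining fibroblast gene, had signals of 474 and 294 in treated FE8 and 166 in untreated FE8. In 208F they were 12811 and 13955 treated and 10934 untreated, so this marker of the labelled cell type was low in FE8. By the model fitted to all probe sets, 4 of the 9 were lower in FE8 without the drug, where 2.82% of all probe sets were. With the drug 4 were lower, where 3.65% were. Without it the other 5 were not called, with log2 differences of 0.51 for Pdgfra, 0.25 for Thy1, 0.20 for S100a4, -0.22 for Vim and -0.77 for Sparc. Some fibroblast markers also changed between treated and untreated cells of the same line. In 208F Col3a1 fell, by -2.17 ± 0.41, a call held in 10 of 10 alternatives. In FE8 Col1a2 fell by -1.93 ± 0.31, held in 8 of 10, and Sparc rose by 1.33 ± 0.34, held in 6 of 10.

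Abcb1b had signals of 5540 and 5566 in treated FE8, 890 in untreated FE8, 1885 and 1830 in treated 208F and 135 in untreated 208F. The 4 groups stood apart without overlap, in the order treated FE8, treated 208F, untreated FE8, untreated 208F. Duplicates lay close together, at 5553 ± 18.4 in treated FE8 and 1857.5 ± 38.9 in treated 208F (SD, n = 2 each). The untreated levels rest on 1 array each and have no spread of their own. The table gives no detection calls, so whether the lowest signal, 135, stood above background is not known, and folds against it depend on that signal.

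**Figure D1:**
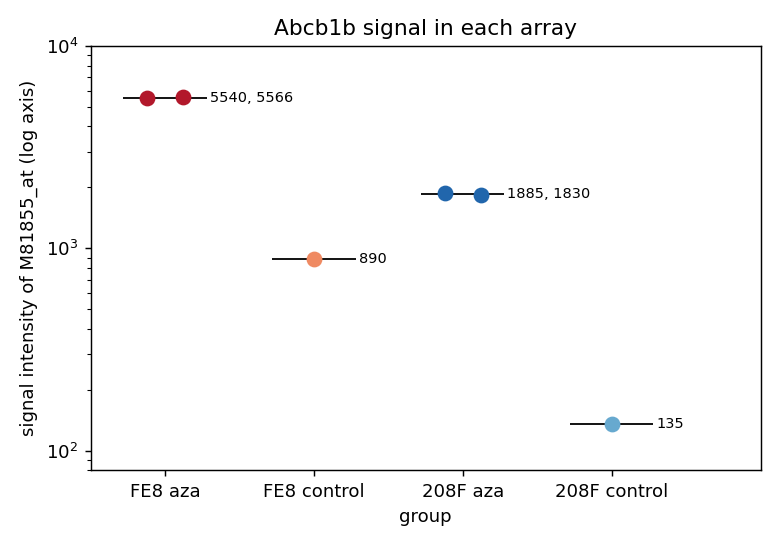
Signal intensity of the Abcb1b probe set on a log axis in each of the 6 arrays, by group, with each group's mean as a line and the signals printed beside it. The treated FE8 arrays, at 5540 and 5566, are the highest and the untreated 208F array, at 135, is the lowest.

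Signals were higher with the drug in both lines. In FE8 the mean signal of treated cells was 6.24-fold that of untreated cells, and in 208F it was 13.8-fold. On the scale of log2(signal + 64), where the added 64 holds down differences of weak signals, the drug difference was 2.56 ± 0.26 in FE8 and 3.27 ± 0.26 in 208F (± SE of a model fitted to all arrays, treated n = 2, untreated n = 1). Among all 4818 tested probe sets these were the rises of rank 48 in FE8 and rank 22 in 208F, counted from the largest. The median over all probe sets was 0.08 in FE8 and 0.11 in 208F. After quantile normalization, which gives all arrays the same distribution of signals, the Abcb1b differences were 2.61 in FE8 and 3.09 in 208F.

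The transformed line had the higher signal with and without the drug. Without it, FE8 had 6.59-fold the signal of 208F, and the difference was 2.26 ± 0.30 on the log2(signal + 64) scale (n = 1 each, SE borrowed from the treated duplicates). With it, FE8 had 2.99-fold the signal of 208F, and the difference was 1.55 ± 0.21 (n = 2 each). Counted from the largest rise, these had rank 56 without and rank 84 with the drug among 4818 probe sets. Both treated FE8 arrays lay above both treated 208F arrays. Without 208F treated replicate 1, which leaves only arrays of 1 chip lot and 1 scan day, the treated difference was 1.57. FE8 treated replicate 2 was scanned again on that same day, and which scan gave its values is not given in the sources used here. The untreated arrays, which also shared a lot and a day, differed in the beta-actin ratio, 0.351 in FE8 against 0.824 in 208F, and the part of this in the result was not tested.

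Treated 208F reached 2.09-fold the signal of untreated FE8. Treated FE8 had 41.1-fold the signal of untreated 208F, a difference of 4.82 on the log2(signal + 64) scale. The 2 contrasts that start from untreated 208F, line and drug, would give a signal of 2612.5 in treated FE8 if their differences added and 12246 if their folds multiplied, and the measured mean of 5553 lay between. In signal units the drug difference was 4663 in FE8 and 1722.5 in 208F, while in log2 units it was smaller in FE8, by -0.71 ± 0.37. That last value moved with the pseudocount, being -1.01 with 16 in place of 64 and -0.09 with a pseudocount larger than 64. In such bulk RNA a rise in every cell and a rise in a fraction of cells cannot be told apart.

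Markers of another cell type moved with the drug. Of 6 epithelial markers 3 were measured, Krt8, Krt18 and Epcam, and their summed signal was 4345 and 4418 in treated FE8 against 145 in untreated FE8, and 3458 and 3039 in treated 208F against 168 in untreated 208F. By the model fitted to all probe sets, all 3 rose in FE8 and 2 rose in 208F, the keratins Krt8 and Krt18, where 5.06% and 3.59% of all probe sets rose. The Krt18 call in 208F held in 3 of 10 alternatives and was lost without 208F treated replicate 2 or either FE8 treated replicate, and without either FE8 treated replicate the FE8 calls of Krt18 and Epcam were lost. Most of that sum was the simple epithelial keratin Krt8, and the lowest signals, 5 for Krt18 and 9 for Epcam in untreated FE8 and 3 and 6 in untreated 208F, were near 0. The part of this in the Abcb1b result was not tested. The measured hepatocyte markers, 3 of 6, summed to between 219 and 500 on every array.

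Genes beside Abcb1b on chromosome 4 were read next. Of the 15 annotated genes on each side, 3 were on the array table: Abcb1a, Crot, which encodes the peroxisomal carnitine octanoyltransferase, and Sri, which encodes sorcin, a calcium-binding protein known from the amplified region of multidrug-resistant hamster cells. Tests here and below are limma's moderated tests with Benjamini-Hochberg adjustment over 4818 probe sets and a threshold of 0.05. In the drug effects 0 of these 3 genes passed in FE8 and 0 passed in 208F, where 8.16% and 5.19% of all probe sets passed. In the difference between drug effects 0 of 3 passed, where 0.0623% of all probe sets passed, 0.0208% as higher and 0.0415% as lower in FE8. Abcb1a was at 205 and 267 in treated FE8, 151 in untreated FE8, 83 and 17 in treated 208F and 68 in untreated 208F. Its drug difference was 0.47 ± 0.45 in FE8 (adjusted p = 0.61) and -0.27 ± 0.45 in 208F (adjusted p = 0.82), and the 208F duplicates lay on either side of their control. The 208F signals of Abcb1a were close to the added 64, which holds that difference down.

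Sri had signals of 470 and 421 in treated FE8 and 563 in untreated FE8, and of 681 and 522 in treated 208F and 475 in untreated 208F. Its drug differences were -0.30 ± 0.32 in FE8 and 0.29 ± 0.32 in 208F, each within 1 SE of 0. The probe set U26033_at of Crot had signals of 211 and 259 in treated FE8 and 227 in untreated FE8, and of 152 and 383 in treated 208F and 184 in untreated 208F. The duplicates enclosed the control in both lines. Drug differences of both Crot probe sets lay between 0.03 and 0.33.

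Between the lines, 0 of the 3 neighbours passed without the drug, where 5.92% of all probe sets passed, and 1 passed with it, where 7.08% passed. That was Abcb1a, higher in treated FE8 by 1.45 ± 0.37 (adjusted p = 0.036), a call lost in 5 of 10 alternatives, namely quantile normalization, the replicate block and the fits without 208F treated replicate 2 or either FE8 treated replicate. Sri differed between the lines by 0.22 ± 0.37 without the drug and by -0.38 ± 0.26 with it, while Abcb1b differed by 2.26 and 1.55. Probe sequences were not used here, so how far the signal of one of these paralogues entered that of the other was not tested.

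Of 43 other ABC transporter genes listed, 8 were measured, the list being Abcb1a, Abcb6, Abcc2, Abcc3, Abcc9, Abcd3, Tap1 and Tap2. By the brightest probe set of each gene, 0 of 8 passed in the drug effect in FE8 and 0 in that in 208F, where 8.16% and 5.19% of all probe sets passed. Between the untreated lines 0 passed and between the treated lines 2, where 5.92% and 7.08% passed. At these shares 8 genes are too few for 0 calls to set the list apart. The median drug difference of the 8 genes was 0.40 in FE8, where that of all probe sets was 0.08, and -0.01 in 208F, where it was 0.11. By these probe sets the largest of the 8 was 1.38 in FE8 and 0.51 in 208F, where Abcb1b stood at 2.56 and 3.27. The plot of transporters shows every probe set, and the weaker Tap1 probe set X57523_g_at stood at 1.145 in FE8 and 0.81 in 208F.

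**Figure D2:**
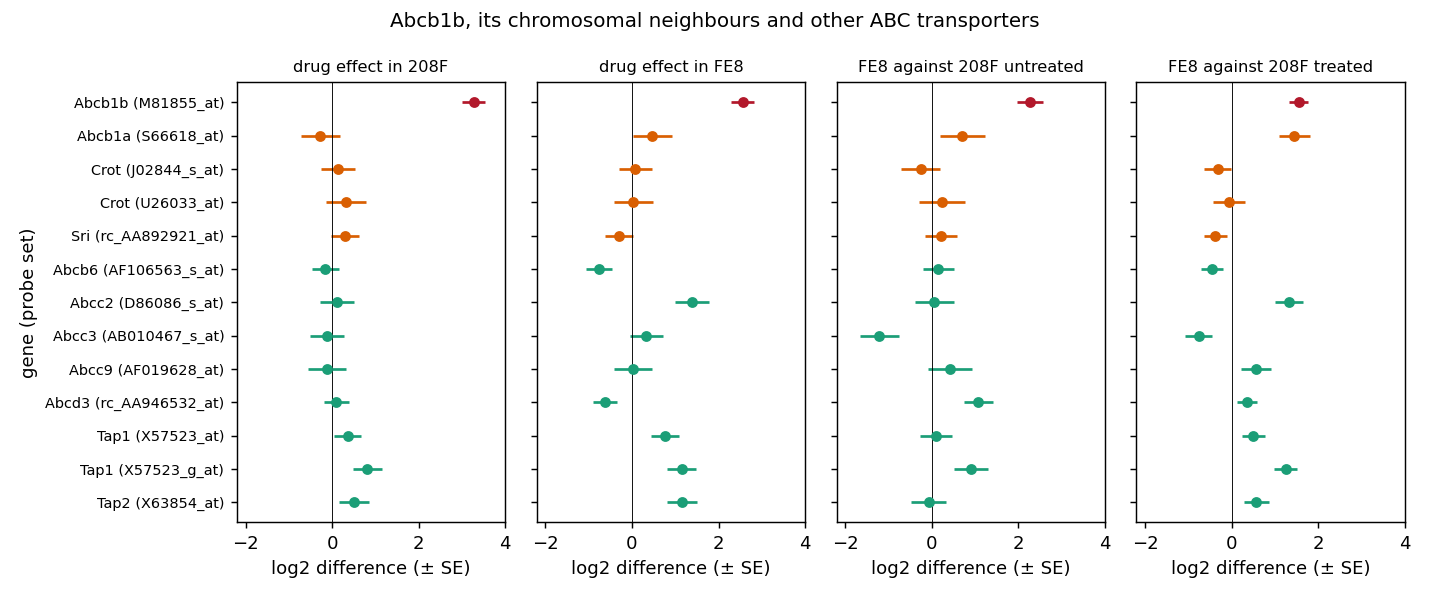
Log2 differences of log2(signal + 64) with standard errors for Abcb1b (top), its measured chromosomal neighbours and other ABC transporters, 1 row per probe set, in 4 comparisons. Abcb1b is at 3.27 and 2.56 in the drug effects, where the other rows lie between -0.77 and 1.38.

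Among the exporters of conjugates, Abcc2, the canalicular multidrug resistance protein of liver, had signals of 152 and 122 in treated FE8, 13 in untreated FE8, 22 and 10 in treated 208F and 10 in untreated 208F. Both treated FE8 arrays stood above all others. The difference between the treated lines was 1.33 ± 0.32 (adjusted p = 0.03), lost without 208F treated replicate 2 and without either FE8 treated replicate, and the drug difference in FE8, 1.38 ± 0.39, missed the threshold (adjusted p = 0.055). Abcc3, a basolateral exporter, had signals of 75 and 98 in treated FE8, 55 in untreated FE8, 165 and 220 in treated 208F and 213 in untreated 208F. It was lower in FE8 by value, -0.77 ± 0.32 with the drug and -1.22 ± 0.45 without it, without passing.

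The peptide transporter subunits Tap1 and Tap2, which load antigen peptides into the endoplasmic reticulum, were higher with the drug by value. The Tap2 probe set had signals of 455 and 442 in treated FE8 and 166 in untreated FE8, and of 285 and 277 in treated 208F and 178 in untreated 208F. Its difference was 1.16 ± 0.35 in FE8 (adjusted p = 0.068) and 0.51 ± 0.35 in 208F. Of the 2 Tap1 probe sets, X57523_g_at was higher in treated FE8 than in treated 208F by 1.25 ± 0.28 (adjusted p = 0.018) and the brighter X57523_at was not called at 0.50 ± 0.26.

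The remaining transporters were Abcd3, a peroxisomal fatty acid transporter, Abcb6, a porphyrin transporter, and Abcc9, a sulfonylurea receptor subunit of potassium channels. Abcd3 had signals of 3697 and 3240 in treated FE8, 5378 in untreated FE8, 3153 and 2315 in treated 208F and 2519 in untreated 208F. Drug differences of these 3 genes lay between -0.77 and 0.02 in FE8 and between -0.16 and 0.10 in 208F, and none passed.

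**Figure D3:**
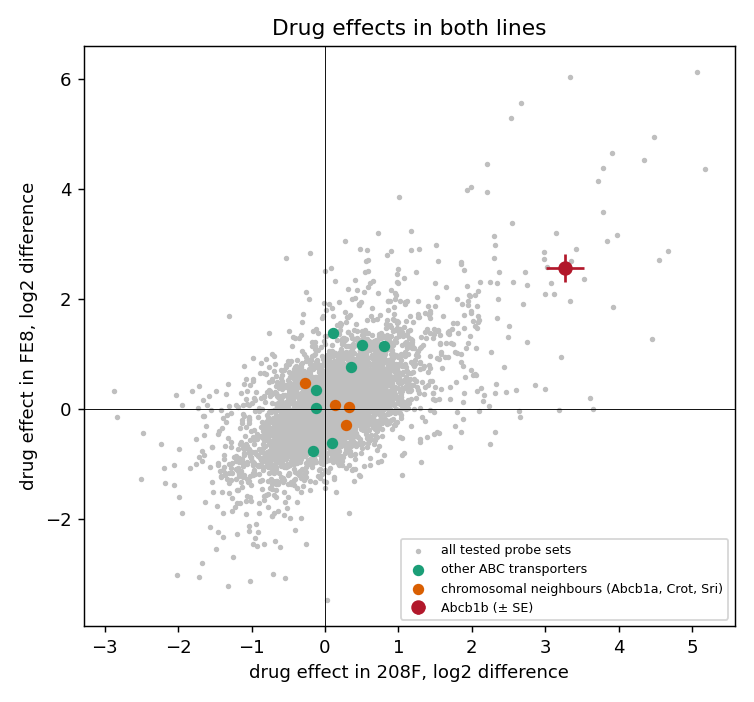
Drug effect in 208F (x axis) against drug effect in FE8 (y axis), as log2 differences of log2(signal + 64), for all 4818 tested probe sets (grey), other ABC transporters (green), chromosomal neighbours (orange) and Abcb1b (red, with standard errors). Abcb1b lies at 3.27 and 2.56, away from its neighbours, which lie between -0.30 and 0.47 on both axes.

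Genes for the uptake, activation, breakdown and targets of decitabine were read as a list. Of 22 listed, 7 were measured, and 0 passed in either drug effect, where 8.16% of all probe sets passed in FE8 and 5.19% in 208F, too few for 0 of 7 to set the list apart. Slc29a1, the equilibrative nucleoside transporter ENT1, had signals of 1287 and 1156 in treated FE8, 1504 in untreated FE8, 410 and 389 in treated 208F and 269 in untreated 208F. It was higher in FE8 by 2.24 ± 0.34 without the drug (adjusted p = 0.0024) and by 1.47 ± 0.24 with it (adjusted p = 0.0027), the second call being lost without either FE8 treated replicate. Dnmt1, the maintenance methyltransferase that decitabine traps as a protein, had signals of 878 and 973 in treated FE8, 855 in untreated FE8, 952 and 829 in treated 208F and 1228 in untreated 208F, and its RNA did not pass in any comparison.

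Transcription factors and signalling proteins reported to act on Abcb1 genes formed a list of 44, of which 17 were measured. With the drug 3 rose in FE8 and 2 in 208F, where 5.06% and 3.59% of all probe sets rose. In either line 0 fell, where 3.09% of all probe sets fell in FE8 and 1.6% in 208F. Egr1, an immediate early zinc finger factor, had signals of 21256 and 20151 in treated FE8, 2798 in untreated FE8, 7747 and 5821 in treated 208F and 3571 in untreated 208F. It rose by 2.86 ± 0.29 in FE8 (adjusted p = 0.00017) and was higher in treated FE8 than in treated 208F by 1.61 ± 0.24, a call lost without either FE8 treated replicate. In FE8 the NF-kB inhibitor Nfkbia rose by 1.96 ± 0.35 and the AP-1 subunit Junb by 1.35 ± 0.29, the first call being lost without FE8 treated replicate 2 and the second without either FE8 treated replicate.

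In 208F the glucocorticoid receptor Nr3c1 rose by 1.80 ± 0.38, with signals of 231 and 238 in treated cells and 22 in untreated cells. However, its second probe set stood at 0.55 ± 0.40. The call was lost without either FE8 treated replicate, after quantile normalization and with the larger pseudocount. Junb rose by 1.12 ± 0.29 in 208F, a call held in 2 of 10 alternatives. Between the untreated lines 1 of 17 was higher in FE8, where 3.09% of all probe sets were, and between the treated lines 2 were, where 3.42% were. Both comparisons called Fosl1, an AP-1 subunit, by 3.22 ± 0.38 without the drug and 2.08 ± 0.27 with it, the treated call being lost without FE8 treated replicate 2. Its signals were 1706 and 1890 in treated FE8, 4140 in untreated FE8, 285 and 489 in treated 208F and 387 in untreated 208F, so unlike Abcb1b it was highest in untreated FE8. The cold shock protein Ybx1, known as a factor of the Abcb1 promoter CCAAT region, had signals between 138 and 209 and passed nowhere.

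NF-kB and p53 are both reported to act on the rat Abcb1b promoter, so genes that respond to them were read as lists. Of 32 NF-kB targets 18 were measured, and with the drug 8 rose in FE8 and 2 in 208F, where 5.06% and 3.59% of all probe sets rose. In either line 0 fell, where 3.09% of all probe sets fell in FE8 and 1.6% in 208F. The median difference of the 18 was 1.16 in FE8 and 0.56 in 208F, where the medians of all probe sets were 0.08 and 0.11. The chemokine Ccl2 had signals of 5188 and 8604 in treated FE8, 1074 in untreated FE8, 766 and 1655 in treated 208F and 82 in untreated 208F. It rose by 2.57 ± 0.42 in FE8 (adjusted p = 0.004) and by 3.03 ± 0.42 in 208F (adjusted p = 0.0021), the FE8 call being lost without either FE8 treated replicate. Plau, the urokinase plasminogen activator, had signals of 635 and 676 in treated FE8 and 61 in untreated FE8, and of 347 and 356 in treated 208F and 48 in untreated 208F. It rose by 2.52 ± 0.35 in FE8 and by 1.89 ± 0.35 in 208F, the 208F call being lost without either FE8 treated replicate. The other 6 in FE8 were Nfkbia, the gelatinase Mmp9, the chemokines Cxcl2 and Cxcl10, Ier3 and the prostaglandin synthase Ptgs2, at 1.16 to 1.96, and after quantile normalization the calls of Mmp9, Cxcl2, Ier3 and Ptgs2 were lost. Without either FE8 treated replicate the calls of those 4 and of Cxcl10 were lost. Between the lines Ccl2 and Cxcl10 were higher in FE8 with and without the drug, where 3.42% and 3.09% of all probe sets were. Of the 18, 0 were lower, where 3.65% and 2.82% of all probe sets were. The treated call of Ccl2 was lost without FE8 treated replicate 2.

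Of 22 p53 targets 5 were measured, and with the drug 2 rose in FE8 and 3 in 208F, where 5.06% and 3.59% of all probe sets rose. Cdkn1a, the cell cycle inhibitor p21, had signals of 1617 and 2172 in treated FE8 and 196 in untreated FE8, and of 2685 and 1929 in treated 208F and 155 in untreated 208F by its brightest probe set. Mdm2, the ubiquitin ligase of p53, rose by 1.30 ± 0.26 in FE8 and by 1.31 ± 0.26 in 208F by its brightest probe set. Both calls were lost without either FE8 treated replicate, and the 208F call also without the intensity trend. Its probe sets AA108308_s_at and AA875509_at rose in FE8, by 1.18 and 1.73. In 208F they were not called, at 0.24 and 0.94. The third in 208F was Gadd45a, a growth arrest gene, at 1.70 ± 0.29, lost without either FE8 treated replicate. Between the lines 0 of 5 passed with the drug and 0 without it, where 7.08% and 5.92% of all probe sets passed. Their median line difference was -0.01 with the drug and 0.66 without it, where the medians of all probe sets were 0.00 and 0.02.

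Drug-metabolising enzymes often share substrates with P-glycoprotein, and 33 of 74 listed were measured. With the drug 2 rose and 1 fell in FE8, where 5.06% of all probe sets rose and 3.09% fell. In 208F 3 rose and 0 fell, where 3.59% rose and 1.6% fell. The quinone reductase Nqo1 had signals of 4594 and 5193 in treated FE8, 1421 in untreated FE8, 5744 and 5334 in treated 208F and 2009 in untreated 208F. It rose by 1.74 ± 0.26 in FE8 and by 1.43 ± 0.26 in 208F, both calls being lost without either FE8 treated replicate. The cytochrome Cyp2c7 rose by 2.66 ± 0.40 in FE8, lost without FE8 treated replicate 1. Its signals were 431 and 287 in treated FE8 against 2 in untreated FE8, and 215 and 170 in treated 208F against 7 in untreated 208F. In 208F it rose by 1.85 ± 0.40, a call held in 6 of 10 alternatives. That call was lost without either FE8 treated replicate, after quantile normalization and with the larger pseudocount.

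Cyp3a9 belongs to the cytochrome family that shares most substrates with P-glycoprotein. It had signals of 1789 and 1836 in treated FE8, 2461 in untreated FE8, 250 and 449 in treated 208F and 75 in untreated 208F. Like Abcb1b it was higher in FE8 in both line comparisons, by 4.18 ± 0.40 without the drug (adjusted p = 9.6e-05) and by 2.23 ± 0.28 with it (adjusted p = 0.00048), the second call being lost without FE8 treated replicate 2. Its drug effect in 208F was 1.53 ± 0.34, a call held in 5 of 10 alternatives and lost without either FE8 treated replicate, but in FE8 both treated arrays lay below the untreated one. The sulfotransferase Sult1b1 fell in FE8 with the drug, by -3.08 ± 0.48 (adjusted p = 0.0027), with signals of 110 and 314 in treated cells against 2098 in untreated cells. Between the untreated lines 2 of 33 were higher and 2 lower in FE8, where 3.09% and 2.82% of all probe sets were, and between the treated lines 2 were higher and 4 lower, where 3.42% and 3.65% were. The 4 lower calls were the cytochrome Cyp1b1, the epoxide hydrolase Ephx1 and the glutathione transferases Gsta1 and Gstm2, all lost without FE8 treated replicate 1, and Cyp1b1 held in 3 of 10 alternatives. Over all comparisons fewer genes of the list were called without either FE8 treated replicate and more without 208F treated replicate 1. Counts over all probe sets moved in the same directions, as given below.

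The genes whose profile over the 6 arrays lay nearest to that of Abcb1b were ranked by the root mean square difference of log2(signal + 64), each gene being centred on its own mean. Over 2889 other genes the median distance was 1.64, the 10 nearest lay between 0.50 and 0.77 and the next was at 0.77, so no gap set these 10 apart. In order they were Errfi1, a feedback inhibitor of the EGF receptor, Ccl2, the calcium-binding protein Ocm, the stress cytokine Gdf15, the surface glycoprotein Cd24, the tetraspanin Cd9, the immunoproteasome subunit Psmb8, the EGF receptor ligand Areg, Plau, and Spint2, an inhibitor of membrane serine proteases. They were picked for their values, so the values below are a description with no test.

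Errfi1, the nearest at 0.50, had signals of 3271 and 3347 in treated FE8, 1307 in untreated FE8, 1112 and 1363 in treated 208F and 165 in untreated 208F. Its drug difference was 1.30 ± 0.28 in FE8 and 2.5 ± 0.28 in 208F, and it was higher in FE8 by 2.58 ± 0.32 without the drug. Its second probe set stood at 2.68, 1.54 and 0.49 in the same comparisons. Ccl2, whose signals are given above, was next at 0.58. By the brightest probe set of each of these 10 genes the drug difference lay between 0.43 and 3.58 in FE8 and between 1.42 and 4.45 in 208F. The line difference lay between 0.16 and 3.68 without the drug and between 0.05 and 2.5 with it. Other probe sets of the same genes went past these ranges, Cd9 with a drug difference of 4.03 in FE8 and an untreated line difference of 0.11, and Ccl2 with a treated line difference of 2.87. Cd9, like Abcb1b, lies on chromosome 4 and the other 9 on other chromosomes. Start windows were found for 9 of the 10, and held between 4 CpG dinucleotides (Gdf15) and 39 (Errfi1), with 15 in Abcb1b. Of the 10 names 6 were the same with a pseudocount of 16, 5 with the larger pseudocount and 9 after quantile normalization.

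**Figure D4:**
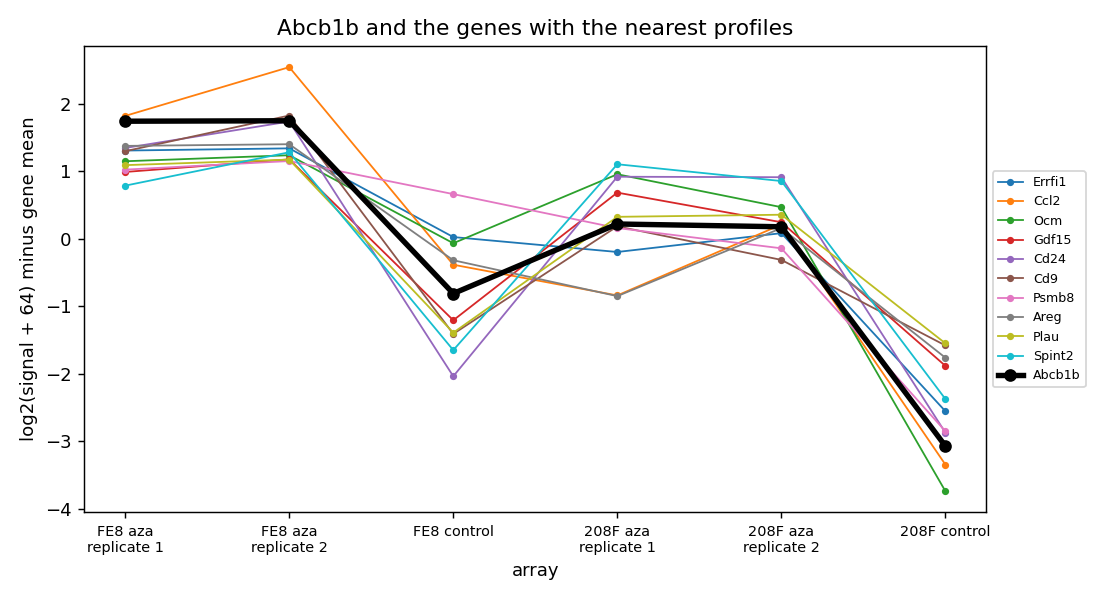
Profiles of Abcb1b (black) and the 10 nearest genes (coloured) over the 6 arrays, as log2(signal + 64) minus each gene's mean. In each gene the untreated 208F array is the lowest and a treated FE8 array is the highest.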

How the data were processed

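RNA of 6 cultured samples was hybridised to Affymetrix rat genome arrays. The deposited values are signal intensities per probe set on a linear scale in whole numbers, made by the authors with MAS5, per the submitters' processing notes, with no settings given in the sources used here. Run settings per the file headers were read for chip lot and scan day only, and both were kept as ordinal numbers. The table held 4847 probe sets, of which 29 controls were left out. A single gene was given for 3956 probe sets, more than 1 for 207 and no gene for 655. Gene identifiers linked 3942 probe sets to RefSeq on GRCr8.

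Here log2(signal + 64) was fitted with 4 group means in limma 3.58.1 under R 4.3.3 (eBayes with intensity trend, 2 residual and 9.02 prior degrees of freedom). The fit was tested on simulated data. The number of arrays limits precision, and the lone untreated array of a line was given the spread of the treated pairs. Comparisons were the drug effect in each line, the lines without and with the drug, and the difference between drug effects. Lists were counted by the brightest probe set per gene. Alternatives were a smaller pseudocount of 16 and a larger one, quantile normalization, a mean signal of at least 64, no trend, leaving out each treated array and a replicate block. Named genes were all measured ABC transporters and chromosomal neighbours, up to 4 called members of other lists per direction, and the 10 nearest profiles; further genes were named where a sentence lists a whole count. Windows were aligned with Biopython 1.88. The gene and the lists were chosen with earlier results of these data known.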

Additional observations from a re-analysis of the deposited data

Results flagged for a closer look

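Ocm, the third nearest profile to Abcb1b, passed for the difference between drug effects in the main setting but not in most alternatives. Ocm was named above for its values, so its p-values are given as a description and are no independent support. Its difference between drug effects, FE8 minus 208F, was -3.19 in log2 units (limma adjusted p = 0.038), with signals of 4030 and 4291 in treated FE8 against 1699 in untreated FE8, and of 3518 and 2490 in treated 208F against 74 in untreated 208F. In log2 units the rise was smaller in FE8 in both treated arrays, which did not hold for every pair of arrays in signal units. The 208F rise rests on the lone untreated signal of 74, which is close to the added 64. Over 10 alternatives the difference lay between -3.76 and -2.11 with adjusted p from 2.3e-14 to 0.48, and it passed in 3 of them. It did not pass without either FE8 treated replicate (adjusted p = 0.45 and 0.48), with the replicate block (0.13), after quantile normalization (0.11), without the intensity trend (0.1), with the larger pseudocount (0.069) or with the signal filter (0.054).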

How the results depend on the processing

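Each of the 5 Abcb1b differences kept its sign in all 10 alternatives. The signal filter, the fit without trend and the replicate block cannot move a difference, and an omitted array moves only contrasts that use its group. With a pseudocount of 16 the drug effect in 208F was 3.63, the untreated line difference 2.585 and the difference between drug effects -1.01. With the larger pseudocount these were 2.43, 1.55 and -0.0926, and the drug effect in FE8 was 2.34. After quantile normalization the untreated line difference was 2.05 and the difference between drug effects -0.48. Leaving out 1 treated array gave 3.25 to 3.29 for the drug effect in 208F, 2.55 to 2.56 in FE8, 1.53 to 1.57 for the treated lines and -0.73 to -0.69 for the difference between drug effects. Neither untreated array could be left out, and what Abcb1b rests on in them was not tested.

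Counts of called probe sets moved more. The main counts were 250 for the drug effect in 208F, 393 in FE8, 285 for the untreated lines, 341 for the treated lines and 3 for the difference between drug effects. Leaving out 1 treated array gave 75 to 663, 76 to 783, 109 to 541, 96 to 530 and 0 to 206 in that order, the low counts without an FE8 array and the high ones without a 208F array. Residual spread came only from the treated pairs, so each of these fits took it from the remaining pair alone. The treated FE8 arrays shared a chip lot and a scan day, while the treated 208F arrays differed in both. The part of this in the counts was not tested. A 208F drug call lost without an FE8 array was lost with its log2 difference unchanged. After quantile normalization 164 and 257 passed for the drug effects in 208F and FE8. For the difference between drug effects, 10 passed with a pseudocount of 16, 6 with the larger one, and 0 with quantile normalization, the signal filter, no trend or the replicate block, where limma gave 364 at an unadjusted p under 0.05 in the main setting. Of 46 calls of list genes 33 were lost without an FE8 treated array, 10 after quantile normalization, and 13 held in every alternative.

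Treated replicate numbers are shared between lines but nothing in the labels pairs them, and deviations of same-numbered arrays correlated with r = 0.319 across probe sets, from 2 pairs of arrays. With the replicate block the Abcb1b differences were unchanged at 3.27 and 2.56 for the drug effects, since the block leaves group means in place, and the count for the treated lines was 325.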
